A study of Apis mellifera ligustica with 11 samples.

Results

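Brains of Apis mellifera ligustica, the Italian honeybee, were compared between day 30 and day 20 of exposure to fluvalinate. It uses 6 of the 11 mRNA libraries of the series, the 3 labelled as 20 days and the 3 labelled as 30 days after exposure, chosen by their labels alone. Both groups had received fluvalinate at the usual hive dose, with mite treatment added every 7 days, so the 2 groups share the agent and differ in the time since its start. The other libraries are 3 from 1 day before exposure and 2 from day 10. Unexposed bees of days 20 and 30 were not analysed here, so longer exposure and 10 further days cannot be told apart. The labels state that royal jelly glands and pigments were taken off the brains before RNA was extracted. They do not give the age of the bees, their colonies or how many brains went into a library. A p-value of the gene tests reflects the variation among libraries of the same sampling time, estimated over all 11 libraries. For lack of those labels, that variation may be technical. Levels are given in FPKM, sequenced fragments scaled to transcript length and to the fragments mapped in the library.

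Fluvalinate is a pyrethroid that kills mites in the hive, and pyrethroids hold voltage-gated sodium channels of nerve cells open. Worker bees pass from nursing inside the hive to foraging outside it. During that passage juvenile hormone in the blood rises, vitellogenin falls, and the hypopharyngeal glands of the head stop making royal jelly proteins and make more carbohydrate-digesting enzymes. These glands lie beside the brain, and the brain is known to transcribe some royal jelly protein genes of its own.

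The label of brain tissue was checked against 14 neuron markers, none of which was listed at 0 in all 6 libraries. Their summed level was 715 to 818 FPKM at day 20 and 775 to 937 FPKM at day 30. Day 30 libraries were less alike than day 20 libraries, with mean correlations to their own group of 0.958, 0.96 and 0.969 against 0.977 to 0.979. Replicate 1 of day 30 stood apart: it lay at -32.6 on the second principal component, where the other 5 libraries lay between -0.162 and 7.59. It also held the highest day 30 level of 58.4% of the 7830 genes tested. The standard deviation (SD) between libraries was larger at day 30 than at day 20 in 69.3% of genes, with medians of 0.222 and 0.142 on the log2 scale.

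No gene passed the test between day 30 and day 20 (0 of 7830, 0%, limma with Benjamini-Hochberg adjustment, adjusted p under 0.05), and the smallest adjusted p was 0.558. At an unadjusted p under 0.05 there were 446 genes higher at day 30 (5.7%) and 57 lower (0.728%). In 1049 genes (13.4%) every day 30 library lay above every day 20 library, and in 111 (1.42%) every one lay below. Among those whose libraries did not overlap, 11 genes were at least 2-fold higher on the log2(FPKM + 1) scale and 11 at least 2-fold lower.

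The median gene lay 0.135 higher at day 30 on the log2 scale. Dividing each library by a median-of-ratios size factor moved this to 0.00368, and the split at an unadjusted p under 0.05 then became 169 higher and 221 lower, so 43.3% were higher in place of 88.7%. For this reason the log2 change of a gene has the median change of 0.135 subtracted and is called its relative change. It carries the standard error (SE) of the fit, and the p beside it tests the change before that subtraction. Libraries are called separate on FPKM as deposited, before that subtraction or any size factor. A narrow gap between the groups may close after scaling. With each library weighted by its own spread, a choice made after the data were seen, 14 genes passed, 4 higher and 10 lower. In that fit day 30 replicate 3 weighed 4.22, against 0.315 and 0.628 for replicates 1 and 2. Its day 30 means therefore rested mostly on 1 library. At day 20 replicate 3 weighed 2.56, against 1.12 and 1.11 for replicates 1 and 2. Leaving out day 30 replicate 1 gave 0 genes and 245 at an unadjusted p under 0.05, and leaving out day 30 replicate 2 gave 0 and 1063, with a smallest adjusted p of 0.0509.

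**Figure D1:**
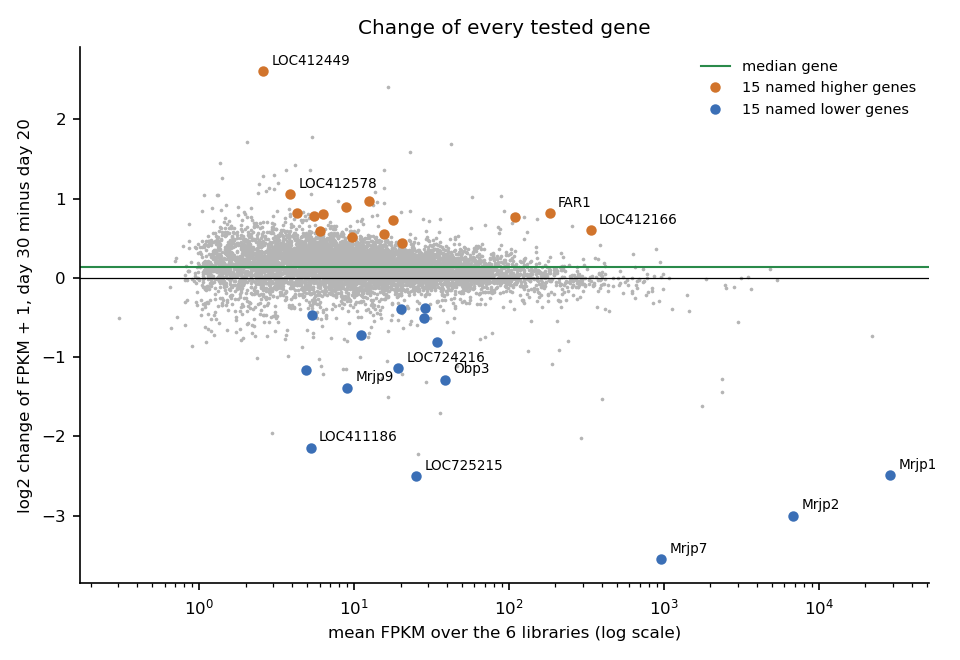
Log2 change of FPKM + 1 between day 20 and day 30 (vertical axis) against the mean FPKM of the 6 libraries (horizontal log axis) for each gene tested, with the 15 named higher and 15 named lower genes coloured and the median gene at 0.135 as a line. Most points lie slightly above 0, and Mrjp7, Mrjp2, LOC725215 and Mrjp1 lie farthest below it.

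Royal jelly protein transcripts were lower at day 30. The summed level of Mrjp1 to Mrjp7, whose products are the main proteins of the royal jelly fed to larvae, was 44155, 85199 and 61935 FPKM in the day 20 libraries and 4234, 36823 and 9049 FPKM in the day 30 libraries. All 3 day 30 sums lay under the lowest day 20 sum. The means were 63763 ± 20583 and 16702 ± 17591 FPKM (SD, n = 3 each), a difference of 5.49-fold on the log scale, with a two-sided exact permutation p of 0.1, the smallest that 3 against 3 libraries can give. This log2 difference of -2.46 was -1.75 without day 30 replicate 1 and -3.31 without day 30 replicate 2, and -1.41 with quantile normalization. The sum made up 13.2%, 23.9% and 16.9% of all FPKM at day 20 and 1.51%, 10.4% and 3.16% at day 30. In bulk tissue, the number of gland cells left on the brain, RNA per gland cell and transcription by the brain itself cannot be told apart.

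Of 9 royal jelly protein genes tested, 0 passed, 5 were lower at an unadjusted p under 0.05 (0.728% of all genes) and 4 lay lower with libraries that did not overlap (1.42%). Their median change was -1.75 relative to all genes. The count of 5 was 4 without day 30 replicate 1 (0.83% of all genes lower) and 7 without day 30 replicate 2 (1.37%). Mrjp1, the most abundant of them, measured 32856, 59966 and 46329 FPKM at day 20 and 3205, 25775 and 6270 FPKM at day 30. The groups were separate, and day 30 replicate 2 stood nearest to day 20. Mrjp1 had a relative log2 change of -2.62 ± 0.78 (SE, unadjusted p = 0.00757, adjusted p = 0.651).

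Mrjp2 measured 7860, 17321 and 9573 FPKM at day 20 and 433, 4707 and 1248 FPKM at day 30, a relative log2 change of -3.13 ± 0.75 (unadjusted p = 0.00175). Mrjp7 measured 937, 3018 and 1148 FPKM at day 20 and 26.3, 533 and 139.6 FPKM at day 30, a relative log2 change of -3.68 ± 0.87 (unadjusted p = 0.00151). In both genes the order of the day 30 libraries was that of Mrjp1, with replicate 1 lowest and replicate 2 highest. Mrjp9, a family member also found in venom, was scarce, at 10.1, 18.6 and 11.5 FPKM at day 20 and 3.64, 7.62 and 2.81 FPKM at day 30, with a relative log2 change of -1.52 ± 0.29. Mrjp2, Mrjp7 and Mrjp9 were among the 14 genes that passed with weighted libraries (adjusted p = 0.0342, 0.0394 and 0.0211).

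The rest of the family was less uniform. Mrjp5 (relative log2 change -1.75 ± 0.63, unadjusted p = 0.0247), Mrjp4 (-2.16 ± 1.1) and Mrjp3 (-1.66 ± 1.29) were lower on average with libraries that overlapped. Mrjp6 measured 462, 264.2 and 1330 FPKM at day 20 and 256, 2477 and 552 FPKM at day 30, so the day 30 range enclosed that of day 20. The relative log2 change of Mrjp6 was 0.23 ± 0.77. Mrjp8, a scarce member, measured 7.59, 5.04 and 6.37 FPKM and then 6.11, 7.19 and 6.32 FPKM, with overlapping groups and a relative change of -0.08 ± 0.19. These genes are close copies of each other, so reads may have been shared between them, and single values within the family are uncertain.

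Gland products other than royal jelly proteins did not separate the days. Apisimin (LOC406093), a small peptide of royal jelly, measured 18292, 24642 and 32775 FPKM at day 20 and 8769, 39590 and 9223 FPKM at day 30. Glucose oxidase (LOC406081), which makes the hydrogen peroxide of honey, measured 2476, 3323 and 3737 FPKM and then 1089, 5830 and 1537 FPKM. Hbg3, an alpha-glucosidase that splits sucrose, measured 3930, 4302 and 6454 FPKM and then 2175, 11306 and 4254 FPKM. In all 3 genes the highest of the 6 values was that of day 30 replicate 2 and the lowest that of day 30 replicate 1. The relative log2 changes were -0.87 ± 0.69, -0.69 ± 0.53 and -0.16 ± 0.58, and amylase (LOC406114), which digests starch, had -0.55 ± 0.73. The list of 7 genes also holds the scarce alpha-glucosidase Hbg2 and genes annotated as lysosomal (LOC409365) and neutral (LOC551205) alpha-glucosidase. Of the 7 genes 0 had an unadjusted p under 0.05 (5.7% of all genes higher, 0.728% lower).

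Set against Mrjp1 within the same library, Hbg3, glucose oxidase and amylase were higher at day 30. The ratio of Hbg3 to Mrjp1 was 0.12, 0.0717 and 0.139 at day 20 and 0.679, 0.439 and 0.678 at day 30, a 5.53-fold difference. For glucose oxidase the ratio went from 0.0554 to 0.0807 at day 20 to 0.226 to 0.34 at day 30, and for amylase from 0.0168 to 0.0586 to 0.109 to 0.124. Mrjp6 to Mrjp1 lay at 0.00441 to 0.0287 and then 0.0799 to 0.0961. The ratios of Mrjp2 and Mrjp7 to Mrjp1 went the other way, from 0.207 to 0.289 and 0.0248 to 0.0503 at day 20 to 0.135 to 0.199 and 0.0082 to 0.0223 at day 30. In each of the enzyme ratios and that of Mrjp6 the 3 day 30 libraries lay above the 3 day 20 libraries, replicate 2 included. Before exposure the ratio of Hbg3 to Mrjp1 was 2.43, 0.431 and 0.355, and at day 10 it was 0.125 and 0.098, so the day 30 ratios lay inside the range before exposure. The ratios were chosen after the values had been seen and are given with no test. They show unequal change within the gland genes and do not show which of them changed.

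**Figure D2:**
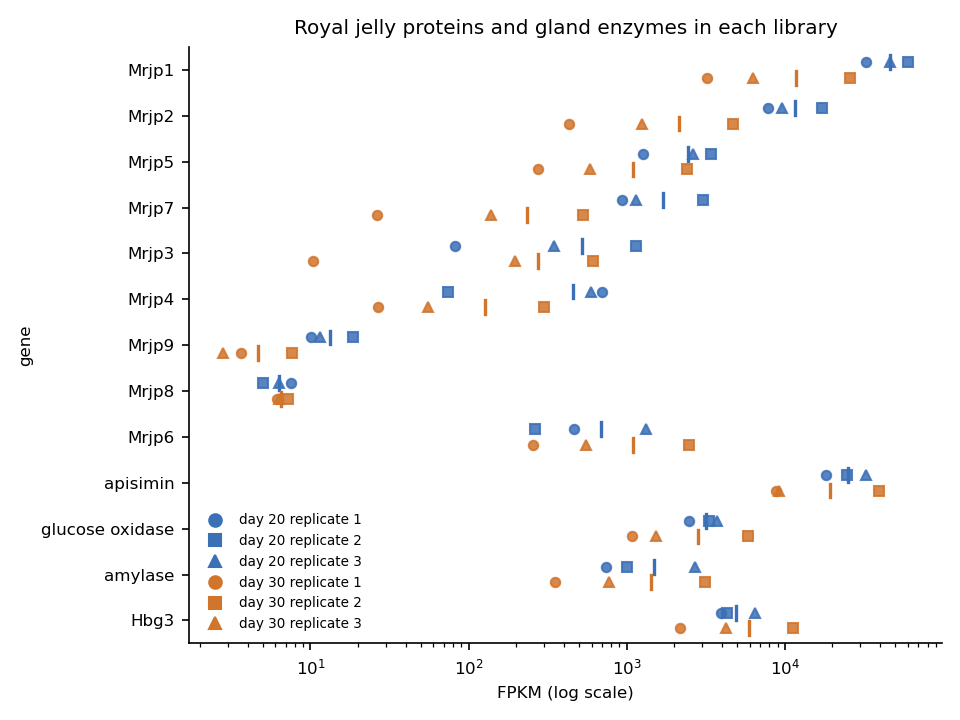
FPKM (log axis) of 9 royal jelly protein genes and 4 other gland products in each day 20 (blue) and day 30 (orange) library, with the arithmetic mean as a vertical tick and the replicate as the marker shape. Mrjp1, Mrjp2, Mrjp7 and Mrjp9 separate the days, whereas the day 30 libraries span the day 20 values for Hbg3, glucose oxidase, apisimin and amylase.

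Several genes outside the gland lists were lower at day 30 and, like the royal jelly proteins, had their highest day 30 level in replicate 2. LOC725215, annotated as venom acid phosphatase Acph-1, measured 33.6, 44.3 and 46.2 FPKM at day 20 and 2.12, 19.6 and 5.41 FPKM at day 30. Its groups were separate and its relative log2 change was -2.63 ± 0.65 (unadjusted p = 0.00219, adjusted p = 0.028 with weighted libraries). LOC552249, a lysosomal alpha-mannosidase that trims sugars from glycoproteins, measured 32.8, 33.9 and 33.6 FPKM and then 21.9, 27.9 and 20.7 FPKM. Vg, vitellogenin, the yolk precursor and storage protein of the fat body, measured 18.4, 26.4 and 19.6 FPKM and then 5.44, 19.1 and 8.61 FPKM. Day 30 replicate 2 fell inside the day 20 range of Vg, and the relative log2 change was -1.18 ± 0.32 (unadjusted p = 0.00622). Of 7 fat body genes 2 were lower at an unadjusted p under 0.05 (0.728% of all genes), Vg and the storage protein Hex70a. All 7 had overlapping libraries. A second vitellogenin gene, LOC726783, had a relative change of -0.33 ± 0.19. HEX70b had -0.22 ± 0.27, Hex110 -0.48 ± 0.30 and apolipophorins (LOC408961) -0.34 ± 0.32. The apolipophorin-III-like A4 lay above the median gene (0.63 ± 0.96). The royal jelly sum moved with LOC725215, LOC552249 and Vg, and its part in their values was not tested.

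Def1 (defensin 1), an antimicrobial peptide of blood and royal jelly, measured 2295, 2949 and 4067 FPKM at day 20 and 503, 3817 and 726 FPKM at day 30. Replicates 1 and 3 lay below all day 20 libraries and replicate 2 among them, and the relative log2 change was -1.57 ± 0.59 (unadjusted p = 0.0318). The other antimicrobial peptides did not separate the days. Abaecin (LOC406144) ranged from 59.3 to 111 FPKM at day 20 and from 36.7 to 70.8 FPKM at day 30, and hymenoptaecin (LOC406142) from 7.11 to 32.2 and from 21.9 to 114 FPKM. Of 23 immune genes 1 was higher (5.7% of all genes) and 1 lower (0.728%) at an unadjusted p under 0.05. Their median change was -0.165 relative to all genes.

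Among genes not known from these glands, the smallest p belonged to LOC411186, the bee counterpart of synaptic vesicle glycoprotein 2C, which in mammals is a membrane protein of transmitter vesicles. It measured 6.98, 14.3 and 6.2 FPKM at day 20 and 0.24, 2.31 and 1.5 FPKM at day 30. The highest day 30 library lay below the lowest day 20 library by more than the day 30 range. The relative log2 change was -2.28 ± 0.36 (unadjusted p = 7.13e-05, adjusted p = 0.558, 0.0211 with weighted libraries). Before exposure LOC411186 stood at 1.23 ± 0.56 FPKM (SD, n = 3), close to day 30, and at day 10 at 13.5 and 17.6 FPKM. It was lowest in day 30 replicate 1 and highest in day 20 replicate 2, as was the royal jelly sum, and the part of gland RNA in its values was not tested.

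Obp3, an odorant-binding protein, a class that carries small hydrophobic molecules, measured 60.8, 56.4 and 45.7 FPKM at day 20 and 26.04, 28.5 and 13.4 FPKM at day 30. The groups did not overlap, and here day 30 replicate 3 was the lowest. Obp3 had a relative log2 change of -1.42 ± 0.24 (unadjusted p = 0.000178, adjusted p = 0.61, 0.0142 with weighted libraries). Before exposure it stood at 52.4 ± 9.77 FPKM (SD, n = 3) and at day 10 at 48.3 and 40.2 FPKM, so every day 30 value was below those of the other 8 libraries. Of 15 odorant-binding and chemosensory proteins 13 lay below the median gene, with a median change of -0.398. The medians of day 30 replicates 1, 2 and 3 were -0.595, 0.00295 and -0.496, so replicate 2 did not share the difference, and with the royal jelly level as a covariate the list median was 0.0135. CSP1, a chemosensory protein, went the other way, from 81.3 to 134 FPKM at day 20 to 133 to 265 FPKM at day 30 (relative log2 change 0.60 ± 0.27, unadjusted p = 0.0188).

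Of 19 hormone and insulin signalling genes tested, 10 lay above the median gene and 9 below it. LOC724216, juvenile hormone acid O-methyltransferase, which acts in the last steps of juvenile hormone synthesis, measured 37.1, 28 and 16.6 FPKM at day 20 and 10.5, 9.04 and 14.8 FPKM at day 30. The groups were separate by a narrow margin, and the relative log2 change was -1.28 ± 0.29 (unadjusted p = 0.00212). It stood at 45.1 ± 6.3 FPKM before exposure (SD, n = 3). Jhe, the esterase that breaks the hormone down, was also lower, at 5.59, 4.54 and 4.1 FPKM and then 3.16, 2.75 and 2.02 FPKM (relative log2 change -0.80 ± 0.21, unadjusted p = 0.00941). Juvenile hormone epoxide hydrolase (LOC406152), which also degrades the hormone, overlapped, with a relative change of -0.06 ± 0.15.

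Receptors and transcription factors of these pathways lay on both sides of the median gene, with more of them above it. Usp (ultraspiracle), the partner of the ecdysone receptor, measured 64.0, 57.0 and 49.6 FPKM at day 20 and 82.9, 68.0 and 80.2 FPKM at day 30, with a relative log2 change of 0.30 ± 0.14 (unadjusted p = 0.00801). The ecdysone receptor Ecr and the ecdysone-induced factor E75 were separate as well, with relative changes of 0.32 ± 0.19 and 0.18 ± 0.11. For Ecr the gap was narrow, 19.25 FPKM in day 30 replicate 3 against 18.39 FPKM in day 20 replicate 1. Kr-h1, the transcription factor through which juvenile hormone acts, measured 35.5, 30.9 and 37.1 FPKM and then 51.4, 51.5 and 43.7 FPKM, with a relative change of 0.35 ± 0.32 and an unadjusted p of 0.148. Before exposure, in libraries that enter the same estimate of spread, Kr-h1 averaged 31.3 ± 16.4 FPKM (SD, n = 3). E74 (0.26 ± 0.19), FTZ-F1 (LOC726450, 0.22 ± 0.17), Br-c (0.15 ± 0.18) and HR3 (LOC408586, 0.13 ± 0.21) also lay above the median gene. Nuclear receptors HR38 (LOC551232, -0.07 ± 0.37), HR4 (LOC410925, -0.02 ± 0.16) and E78C (LOC413076, -0.08 ± 0.22) lay slightly below it. Before the median change was subtracted, every day 30 library of HR4 lay above every day 20 library. Of the 19 genes, 7 had separate libraries higher at day 30 (13.4% of all genes did) and 2 lower (1.42%). At an unadjusted p under 0.05, 3 were higher (5.7% of all genes) and 2 lower (0.728%). These counts were 1 (2.16%) and 2 (2.82%) with median-of-ratios size factors, and 0 (2.04%) and 1 (0.958%) with the royal jelly level as a covariate. Insulin-like peptide 2 (ILP-2) and the insulin-like peptide receptor (LOC411297) overlapped.

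Among the 37 gene lists, fatty acid synthesis had the largest share of members higher at day 30 at an unadjusted p under 0.05. Of 25 tested, 11 were higher at that p, where 5.7% of all genes were. Libraries were separate and higher in 9 (13.4% of all genes) and separate and lower in 1 (1.42%). None passed adjustment over all genes. The median change was 0.162 relative to all genes, and the summed level was 1794, 1380 and 1950 FPKM at day 20 and 2241, 2622 and 2032 FPKM at day 30. The 11 cover the pathway from its entry to long chains and alcohols: ATP-citrate synthase, acetyl-CoA carboxylase, fatty acid synthase, 2 elongases, a desaturase, 2 acyl-CoA ligases and 3 fatty acyl-CoA reductases.

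FAR1, a reductase that makes fatty alcohols for wax and hydrocarbons, measured 170.3, 90.0 and 142 FPKM at day 20 and 219, 284 and 193 FPKM at day 30, a relative log2 change of 0.68 ± 0.22 (unadjusted p = 0.00304). Fatty acid synthase (LOC412815) measured 213, 171 and 198 FPKM and then 255, 466 and 240.4 FPKM, a relative change of 0.52 ± 0.23. The desaturase LOC412166, which puts a double bond into acyl chains, measured 292, 213 and 302 FPKM and then 456, 406 and 355 FPKM, a relative change of 0.47 ± 0.17. In all 3 genes the groups were separate and day 20 replicate 2 was the lowest library.

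The elongase LOC724552 had the widest difference of the list, from 18.5, 4.09 and 14.1 FPKM to 41.5, 32.2 and 28.2 FPKM, a relative log2 change of 1.46 ± 0.49 (unadjusted p = 0.0066). Acetyl-CoA carboxylase (LOC552286), which makes the building block of fatty acids, measured 64.1, 39.7 and 57.2 FPKM and then 77.5, 115.7 and 66.8 FPKM. ATP-citrate synthase (LOC550686), which supplies acetyl-CoA, measured 120.1, 80.1 and 113 FPKM and then 142, 207 and 126 FPKM. Both were separate by a small gap between day 20 replicate 1 and day 30 replicate 3. Not all members shared this. A different desaturase, LOC551527, was lower with separate libraries (relative change -0.36 ± 0.13), and the most abundant one, LOC552417, had a relative change of -0.12 ± 0.16 with overlapping libraries.

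The count of 11 moved with single libraries and with scaling. It was 7 (2.16% of all genes higher) with median-of-ratios size factors, 8 (2.3%) without day 30 replicate 1, and 5 (2.91%) without day 20 replicate 2. Without day 30 replicate 2 it was 6, where 12.2% of all genes were higher. With the level of royal jelly transcripts as a covariate it was 10 (2.04%). Without replicate 2 at all 4 sampling times it was 1 of 25 (4%), below the 7.31% of all genes, so the excess over all genes was not seen without these libraries. Several of these genes had been high at day 10 too. FAR1 measured 287 and 269 FPKM and fatty acid synthase 574 and 453 FPKM at day 10, and before exposure they averaged 116 ± 19.3 and 197 ± 32.1 FPKM (SD, n = 3), near day 20.

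Genes of sterol, isoprenoid and glycerolipid synthesis were put in a list after its leading genes had been seen among the smallest p, so the counts describe the list and support nothing. Of 23 tested, 8 were higher at an unadjusted p under 0.05 (5.7% of all genes) and 7 had separate libraries higher (13.4%), 10 lay below the median gene, and their median relative change was 0.0757. LOC413763, HMG-CoA synthase, an early enzyme of isoprenoid synthesis, from which juvenile hormone is also made, measured 15.8, 12.0 and 12.0 FPKM at day 20 and 25.9, 24.4 and 17.7 FPKM at day 30, a relative log2 change of 0.59 ± 0.18 (unadjusted p = 0.00181). HMG-CoA reductase (LOC550724), the next enzyme and a main point of control, had 0.24 ± 0.14 with separate libraries. Srebf1, the transcription factor known in flies and mammals to switch on lipid synthesis genes, measured 83.2, 68.9 and 74.4 FPKM and then 105.9, 94.2 and 91.0 FPKM, a relative change of 0.22 ± 0.12 (unadjusted p = 0.0134). LOC411459, annotated as the protein that escorts Srebf1 to its cleavage site, had 0.25 ± 0.12 (unadjusted p = 0.00601).

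LOC725343, alkyldihydroxyacetonephosphate synthase, which makes ether lipids, measured 100.6, 55.5 and 91.7 FPKM at day 20 and 143, 161 and 111 FPKM at day 30, a relative log2 change of 0.63 ± 0.21. LOC724951, an acyltransferase of glycerolipid synthesis, measured 8.13, 3.8 and 6.06 FPKM and then 14.5, 12.7 and 8.39 FPKM, a relative change of 0.76 ± 0.25. In both the groups were separate, the second by a narrow gap. The later mevalonate enzymes did not separate the days: farnesyl pyrophosphate synthase (LOC551189) had 0.20 ± 0.24 and diphosphomevalonate decarboxylase (LOC725817) -0.24 ± 0.21. The count of 8 was 4 without day 30 replicate 1 (2.3% of all genes), 5 with median-of-ratios size factors (2.16%) and 3 without replicate 2 at all 4 sampling times (7.31%).

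**Figure D3:**
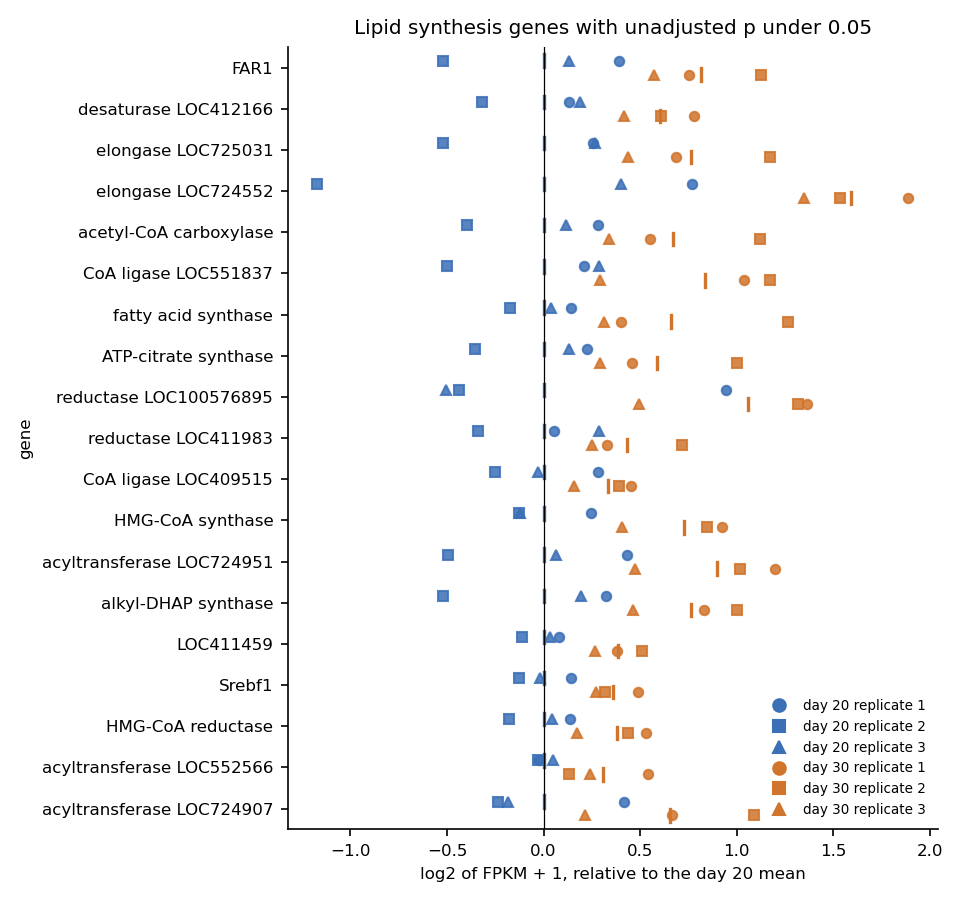
Log2 of FPKM + 1 relative to the day 20 mean (horizontal axis) for the 11 fatty acid genes and, from HMG-CoA synthase down, the 8 sterol, isoprenoid and glycerolipid genes with an unadjusted p under 0.05. Day 20 libraries are blue and day 30 orange, with the replicate as the marker shape and the mean as a vertical tick. Day 30 means lie to the right for every gene shown, since the genes were chosen for that, and day 20 replicate 2 is the lowest library in most.

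Caltractin (LOC412449), a centrin-like calcium-binding protein of centrioles, was listed at 0 in all 3 day 20 libraries and at 4.2, 6.61 and 4.69 FPKM at day 30. It was the 1 gene listed at 0 throughout day 20 with at least 1 FPKM in every day 30 library, and 0 genes showed the opposite. Before exposure it was listed at 5.85, 0 and 0 FPKM, and at day 10 at 1.15 and 2.7 FPKM, so zeros were not limited to day 20. Whether these zeros were failed estimates or absent transcript was not tested. In the fit of all 11 libraries the adjusted p was 0.651, and in a fit of only the 6 libraries of days 20 and 30 it was 0.00404, with caltractin the 1 gene that passed.

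The remaining higher genes chosen by smallest p were of mixed function. LOC412578, subunit 21 of the Mediator complex that links transcription factors to RNA polymerase, measured 1.83, 2.0 and 2.56 FPKM at day 20 and 7.61, 5.27 and 4.05 FPKM at day 30 (relative log2 change 0.92 ± 0.23, unadjusted p = 0.000527). LOC725011, an assembly factor of cytochrome oxidase, measured 4.82, 2.82 and 3.99 FPKM and then 7.96, 6.77 and 7.03 FPKM. LOC551560, cytochrome P450 6k1, an oxidising enzyme, measured 10.6, 6.39 and 7.0 FPKM and then 23.8, 15.8 and 11.5 FPKM (relative change 0.84 ± 0.25). All were separate, and day 30 replicate 1 was the highest library in 11 of the 15 higher genes. The same held in 791 of all 1049 genes with separate libraries higher at day 30. The others were the high mobility group protein LOC100576784 (0.68 ± 0.18, adjusted p = 0.0353 with weighted libraries), the transcription factors Sox-13 (LOC408884, 0.45 ± 0.15) and abrupt (LOC726547, 0.31 ± 0.12), spindle-F (LOC551963, 0.67 ± 0.22), a trafficking complex subunit (LOC552422, 0.42 ± 0.15) and the palmitoyltransferase LOC412024 (0.38 ± 0.15).

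Other lower genes with the smallest p came from outside the gland lists. LOC409602, annotated as a circadian clock-controlled protein, measured 39.5, 43.0 and 49.95 FPKM at day 20 and 22.0, 27.0 and 25.3 FPKM at day 30 (relative log2 change -0.94 ± 0.19, unadjusted p = 0.00094, adjusted p = 0.0434 with weighted libraries). LOC408955, the aminotransferase that breaks down the transmitter GABA, measured 34.3, 32.2 and 31.9 FPKM and then 24.0, 25.2 and 26.01 FPKM, 2 groups far apart for their spread (-0.51 ± 0.12). LOC551401, a folate enzyme, had a relative change of -1.29 ± 0.34, LOC408603, a glucose dehydrogenase, -0.85 ± 0.23, Gb15078 -0.53 ± 0.13 and LOC552805, protein shifted, -0.60 ± 0.16. Day 30 replicate 1 was the lowest day 30 library in 9 of the 15 lower genes, and in 47 of all 111 genes with separate libraries lower at day 30.

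**Figure D4:**
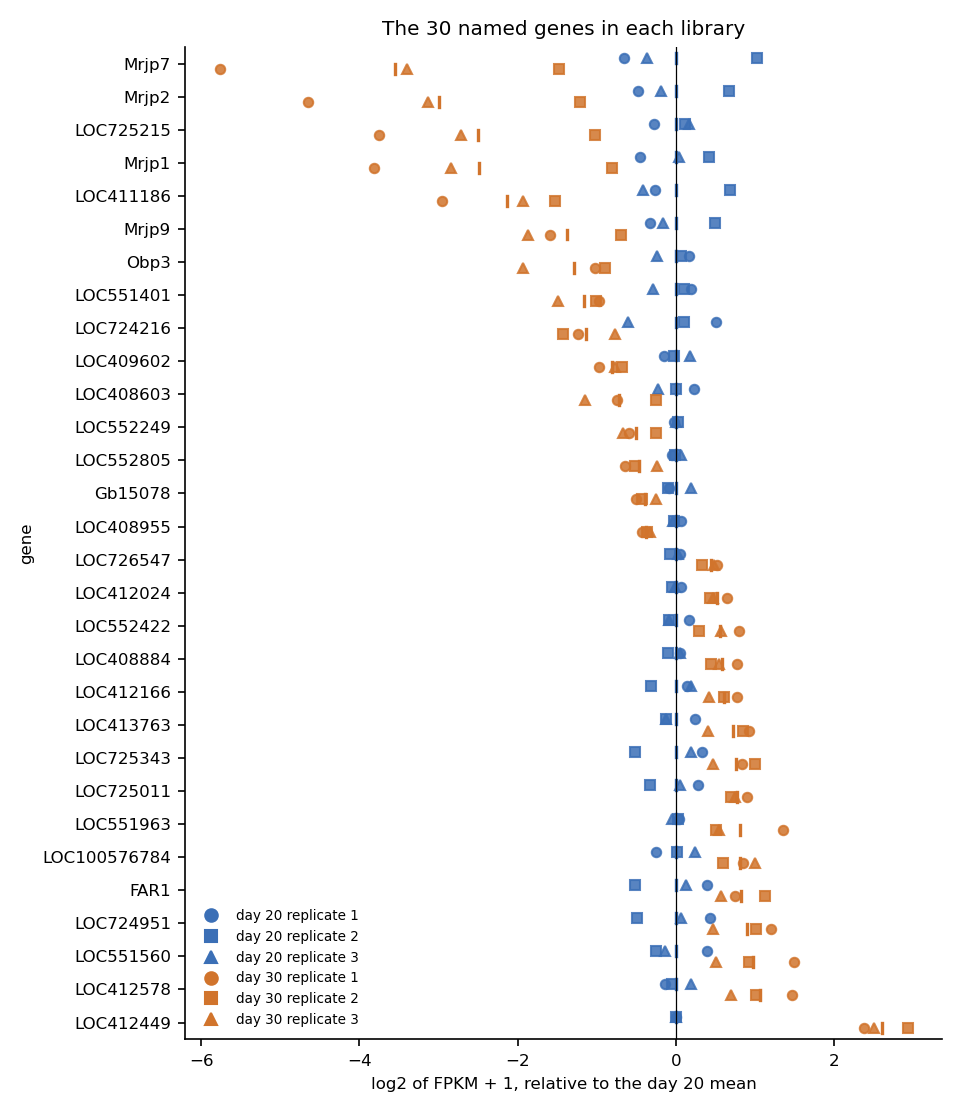
Log2 of FPKM + 1 relative to the day 20 mean (horizontal axis) of the 15 lower and 15 higher genes with the smallest p and non-overlapping libraries, day 20 in blue and day 30 in orange, replicate as marker shape and mean as a vertical tick. Mrjp7, Mrjp2, Mrjp1 and venom acid phosphatase LOC725215 spread most within day 30, with replicate 1 lowest and replicate 2 highest in each.

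Lists of channels, receptors and synaptic genes of nerve cells, on which pyrethroids act, had medians close to the median gene. Para, the voltage-gated sodium channel that fluvalinate binds, measured 62.1, 56.1 and 54.4 FPKM at day 20 and 78.3, 57.0 and 79.3 FPKM at day 30. The groups overlapped through day 30 replicate 2, and the relative log2 change was 0.16 ± 0.18. Of 20 voltage-gated channels 1 was higher at an unadjusted p under 0.05, as were 2 of 47 transmitter receptors (5.7% of all genes), with list medians of 0.054 and 0.0206. Among 35 genes of synaptic vesicles and active zones 2 were higher (5.7% of all genes) and 2 lower (0.728%), with a median of 0.0123. Bruchpilot (brp), the scaffold of active zones, measured 19.0, 21.7 and 20.2 FPKM and then 30.6, 24.1 and 33.8 FPKM (relative change 0.37 ± 0.17, unadjusted p = 0.0103). The groups were separate, and brp had stood at 32.3 ± 2.97 FPKM before exposure (SD, n = 3). The GABA-B receptor subunit LOC410979 and adenylate cyclase 3 (Ac3) had relative changes of 0.38 ± 0.19 and 0.33 ± 0.19 with overlapping libraries. Of the 14 neuron markers, brp among them, 2 were higher (5.7% of all genes) and 1 lower (0.728%) at an unadjusted p under 0.05. Libraries were separate and higher in 4 of the 14 (13.4% of all genes), and their median was 0.0855. Neuropeptide precursors had 0 of 18 at an unadjusted p under 0.05 and a median of -0.159, with 15 of the 18 below the median gene.

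Apart from P450 genes, detoxification and stress genes showed few differences. Among 30 cytochrome P450 genes 1 was higher (5.7% of all genes) and 3 were lower (0.728%) at an unadjusted p under 0.05, and the list median was -0.11 on the relative scale. The 3 lower were LOC550965 (relative log2 change -0.86 ± 0.27), LOC724175 (-0.87 ± 0.28) and LOC410492 (-0.46 ± 0.14), all with overlapping libraries. LOC550965 and LOC724175 were scarce, with day 20 means of 1.81 and 3.14 FPKM. The P450 LOC102653899 (6a13), outside the naming rule, measured 0.2, 0.14 and 0.71 FPKM at day 20 and 0.04, 96.7 and 2.45 FPKM at day 30, so its mean rested on day 30 replicate 2. It was the 1 gene that passed with the royal jelly level as a covariate (adjusted p = 0.0374). A4, apolipophorin-III, a lipid carrier of blood and likewise outside the rule, was high in the same library, at 582 FPKM against 16.9 to 51.4 FPKM in the other 5. Of 42 UDP-glycosyltransferases and ABC transporters 2 were higher, led by the ABC transporter LOC724865 at 28.6, 18.2 and 33.9 FPKM and then 48.2, 49.4 and 36.8 FPKM. Heat shock proteins (1 of 45 higher), unfolded protein response genes (2 of 24 higher), antioxidant enzymes (0 of 11), glutathione S-transferases (0 of 5) and carboxylesterases (0 of 8) had medians between -0.195 and -0.00499.

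Abundant housekeeping transcripts lay slightly below the median gene. Of 76 cytosolic ribosomal proteins 75 did so, with a median of -0.166, as did 54 of 59 nuclear genes of oxidative phosphorylation (median -0.158) and 21 of 22 histones (median -0.306). By library the ribosomal median was -0.427, 0.11 and -0.167 in day 30 replicates 1, 2 and 3, so replicate 2 lay on the other side. Histones were lowest in day 30 replicate 1 (-0.74, against -0.138 and -0.163). Singly, 2 histones were lower at an unadjusted p under 0.05 (0.728% of all genes were). Among ribosomal and nuclear oxidative phosphorylation genes 0 and 0 had such a p in either direction. With the royal jelly level as a covariate the ribosomal median became 0.103. Mitochondrially encoded transcripts, 9 tested, had medians of -0.242, 0.506 and -0.758 in the day 30 libraries and -0.234 to 0.243 at day 20.

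Markers of other tissues were few and mostly unseparated. Of 25 muscle genes 0 and of 8 glial genes 0 had an unadjusted p under 0.05 (5.7% of all genes higher, 0.728% lower). Of 5 haemocyte genes 1 was lower. It was hemocytin (LOC411597), a clotting protein, at 11.6, 12.2 and 15.8 FPKM and then 8.01, 10.6 and 8.61 FPKM. Of 11 photoreceptor genes 1, the inaD-like protein LOC409020, was higher at an unadjusted p under 0.05 (relative change 0.20 ± 0.14, overlapping libraries). Lop1, the long-wavelength opsin, measured 1159, 381 and 323 FPKM at day 20 and 547, 742 and 663 FPKM at day 30. Of 6 clock genes 1 was higher (5.7% of all genes), LOC725614 (cycle), at 13.4, 9.36 and 10.4 FPKM and then 15, 15.5 and 14.4 FPKM. No member of these lists passed adjustment. Of 20 genes known from the passage of nurses to foragers 3 were higher (5.7% of all genes) and 3 lower (0.728%). All of them are already named under hormones and fat body. The lists not described above, among them cuticle proteins (1 of 29 lower), odorant and gustatory receptors (0 of 9), proteasome (0 of 37), glycolysis (1 of 35 higher), mitochondrial ribosomal proteins (3 of 71 higher), learning kinases (1 of 21 higher) and translation factors (1 of 60 higher), had medians between -0.139 and 0.0542.

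**Figure D5:**
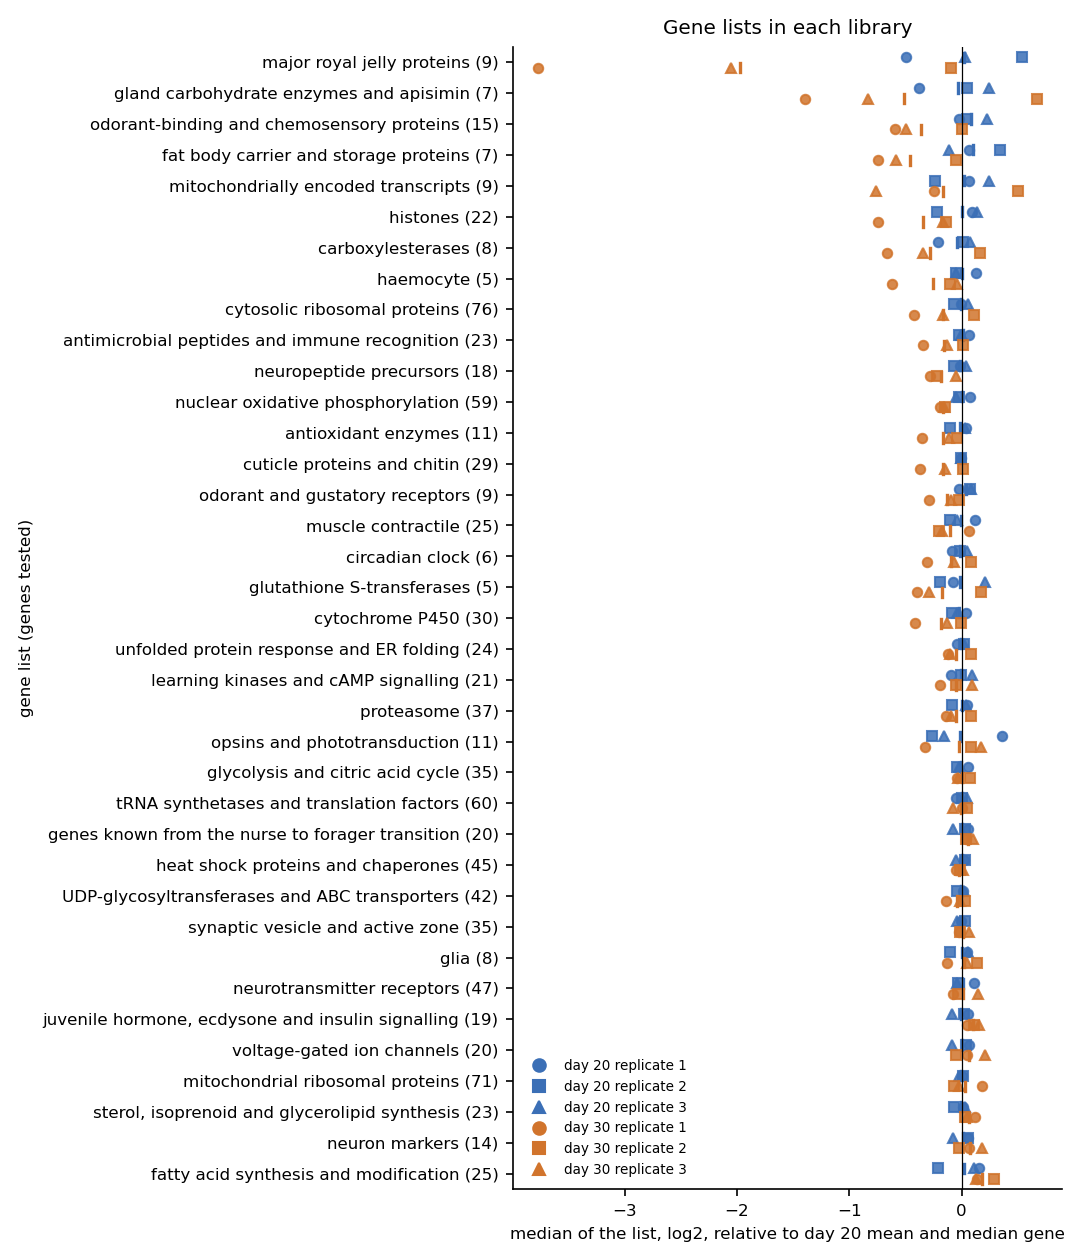
Median over each gene list of log2 FPKM + 1 relative to the day 20 mean and to the median gene of the library (horizontal axis), for each day 20 (blue) and day 30 (orange) library, with the number of genes tested in brackets, the replicate as marker shape and the mean as a vertical tick. Royal jelly proteins range from -3.77 to -0.0898 at day 30, wider than any other list shown.

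Against the libraries taken before exposure, neither day 20 nor day 30 had a gene that passed (0% of 7830 in each), and both comparisons share those 3 libraries. Mrjp1 had log2 differences from before exposure of 3.28 at day 20 and 0.79 at day 30, and Mrjp7 of 3.64 and 0.10. LOC411186 had 2.13 and -0.01, LOC725215 3.42 and 0.93, and LOC552249 0.49 and -0.01. The lipid genes ran the other way, with FAR1 at 0.17 and 0.99, LOC412166 at -0.01 and 0.59 and LOC724552 at 0.18 and 1.77. Obp3 (0.06 and -1.23), LOC409602 (-0.15 and -0.95) and LOC408603 (-0.14 and -0.86) were near the level before exposure at day 20 and below it at day 30.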

How the data were processed

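Brain mRNA libraries were compared as FPKM per gene, deposited by the authors with 2 decimals; the unit is given per the file headers. StringTie, HISAT2 2.1.0 and fastp 0.18.0 are listed without roles, per the submitters' processing notes. Build, annotation and use of strand: not given in the sources used here, so overlapping genes may share reads. Of the 12 FPKM columns 1 was not used. All 9935 gene numbers matched RefSeq Amel_HAv3.1, used only for names.

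Differences were tested with limma 3.58.1 in R 4.3.3, after taking log2(FPKM + 1) and allowing a trend of variance with level. It covered the 7830 genes that averaged 1 FPKM or more in the 11 libraries, and the model held the means of 4 sampling times, leaving 7 degrees of freedom. Calls needed a Benjamini-Hochberg adjusted p under 0.05. The pseudocount of 1 understates changes of low genes. The fit was tested on simulated data. Low values showed no steps of whole reads, so depth is unknown and no counting error is given.

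Named genes were 15 higher and 15 lower by smallest p with separate libraries, a known name and at least 5 FPKM in the higher group, up to 2 per gene list, and a fixed set of gland genes. Genes outside this rule are members of the lists described, chosen after their values were seen. Members and lists were chosen with earlier results of these data known, and the lists were cleaned by description words after the files were read. Some of the 901 listed genes (28) count in more than 1 list. Same-numbered libraries of the 2 days did not deviate together and were not paired.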

Additional observations from a re-analysis of the deposited data

How the results depend on the processing

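The count of 0 genes passing held under 19 of 22 alternatives (503 at an unadjusted p under 0.05 as reported). It was 1 with only the 6 libraries of days 20 and 30 (caltractin), 1 with the royal jelly level as a covariate (LOC102653899), and 14 with weighted libraries, an alternative chosen after seeing the data, as was leaving out day 30 replicate 1 with size factors. With the replicate number as a block the count was 0 (smallest adjusted p 0.108 over 11 libraries and 0.0713 over 6). The numbers did not pair the libraries: same-numbered deviations correlated at 0.04, -0.039 and -0.092. The summed Mrjp difference ranged from -3.31 to -1.75 with 1 library left out. At an unadjusted p under 0.05, counts were 245 to 1063 with 1 library left out, 390 with size factors, 356 with quantile normalization, 235 with the royal jelly covariate and 1686 with weighted libraries.

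Over 100 named genes and 22 alternatives, 36 of 2191 log2 changes (before subtracting the median) took the other sign, 11 passed where they had not, and the rest kept sign and side. The cause was not tested. The royal jelly covariate was the mean log2 level of Mrjp1 to Mrjp7, which contains Mrjp3, and the sum of these genes was lower at day 30. A sign that turned in that fit therefore cannot separate the gland level from the day. With the royal jelly level as a covariate, the changes that turned were 0.266 (LOC406093), 0.253 (LOC409173), 0.169 (LOC726134), 0.00699 (Cat), 0.547 (ND4), 1.62 (Mrjp3), 0.496 (LOC406081), 1.12 (LOC406114) and 0.946 (Hbg3). With quantile normalization they were 0.578 (LOC406093), 0.0346 (Hbg3), -0.0647 (LOC410757), -0.0437 (LOC409365) and -0.0161 (LOC551205), and with size factors -0.0036 (Gtpx1), -0.0731 (LOC410757), -0.00569 (LOC409365) and -0.084 (LOC551205). Without day 30 replicate 1 and with size factors they were 0.0436 (Mrjp3), 0.234 (LOC406114), 0.465 (Hbg3) and -0.0485 (LOC409365). With the mitochondrial level as a covariate Hbg3 had 0.0203, with weighted libraries Mrjp6 had -0.175, and without replicate 2 at all 4 times Mrjp6 had -1.06 and LOC551205 -0.0237. With 1 library left out, ranges that crossed 0 were -0.349 to 0.00195 (LOC726134), -1.1 to 0.298 (ND4), -2.76 to 0.116 (Mrjp3), -0.536 to 1.1 (Mrjp6), -1.28 to 0.306 (LOC406114) and -0.652 to 0.537 (Hbg3).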
